A study of Mus musculus with 6 samples.

Results

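Fibroblast growth factors (FGFs) are ligands that bind receptor tyrosine kinases on the cell surface together with heparan sulfate, and the bound receptor signals through the RAS-ERK and PI3K-AKT cascades. The expression of 10 genes of this family was examined in Ink4a/Arf-deficient mouse astrocytes with and without JAG1 overexpression. These were the ligand genes Fgf1, Fgf2, Fgf5, Fgf7 and Fgf10, the gene Fgf13, the receptor genes Fgfr1, Fgfr2 and Fgfr3, and the receptor-like gene Fgfrl1. They were taken by symbol from the 23282 gene rows of each library, and each was found on 1 row.

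In the brain, FGF2 and FGFR1 are known from neural progenitors and reactive glia, and FGFR3 from astrocytes. FGF7 and FGF10 are close relatives that mesenchymal cells secrete and that bind a splice form of FGFR2, with FGF10 also binding a splice form of FGFR1. FGFRL1 binds FGFs but lacks the tyrosine kinase domain, and FGF13 stays inside the cell, where it binds voltage-gated sodium channels. Counts per gene do not tell the splice forms of a receptor apart.

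Every library came from a murine astrocyte line labelled Ink4a -/-, grown with 10% fetal bovine serum. The 3 control libraries (labelled Con, genotype WT) came from cells given the empty vector pcDNA3.1-puro, and the 3 JAG1-overexpressing libraries, called JAG1 libraries here, from cells given pcDNA3.1-JAG1-puro. Both groups therefore share the Ink4a deletion, and WT was read as without JAG1. Nothing in the sources used here gives each library a transfection of its own, so p-values measure the spread between these libraries, which may be technical. QuantSeq libraries are read from the 3' end of mRNA, and reads per gene therefore do not rise with transcript length. Levels are set side by side between genes on this basis alone. What else may shift the reads of a gene against those of another, such as the annotation or the strand setting, was not tested. Levels are given as CPM, reads per 1e+06 reads after TMM normalization, and changes as the log2 fold change of JAG1 over control with its standard error (SE). The libraries held between 14341634 and 20489062 reads, and a count of 3, taken as the limit of detection, equaled between 0.148 and 0.206 CPM. This limit and the intervals on shares of reads cover counting error only.

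Jag1, the NOTCH ligand that was overexpressed, had 8.99, 10.8 and 11.2 CPM in the control and 15.2, 13.6 and 13.8 CPM in the JAG1 libraries (log2 change 0.46, SE 0.11, adjusted p = 0.00446 by the quasi-likelihood test of edgeR). This was 1.38-fold in the fit, at the 83.1th percentile of the log2 changes of all tested genes. Whether reads from the plasmid entered this count was not tested, and they could not be told apart from those of the endogenous gene. The degree of overexpression can therefore not be read from it. The groups also stood apart over chromosomes 15 and 19. Genes on chromosome 19 were mostly higher (median log2 change 0.61 over 422 tested genes), and genes on chromosome 15 were mostly lower (−0.53 over 458 genes). The 7 tested genes on chromosome Y moved both ways, with Ddx3y, Eif2s3y, Kdm5d and Uty higher by log2 changes between 0.98 and 1.60, and Gm21693, Gm21708 and Gm3376 lower, with log2 changes between −1.87 and −1.45. None of the 10 members lies on chromosome 15, 19 or Y, and leaving chromosomes 15 and 19 out of the scaling changed no call among them. What set these chromosomes apart was not tested. For every gene, the members among them, JAG1 and any other difference between the cells of the groups cannot be told apart. The astrocyte markers Gfap and Aqp4 had no read in any library. In bulk libraries, fewer cells of a type and less RNA per cell cannot be told apart.

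Fgf7 was nearly lost and Fgf10 was higher in the JAG1 libraries. Among the receptors, Fgfr1 fell while Fgfr2 and Fgfr3 rose, and Fgfrl1 did not pass the test. Of the 10 genes, 6 had enough reads to be tested. In edgeR's quasi-likelihood test with Benjamini-Hochberg adjustment over all 11712 tested genes, 3 of them were higher and 2 were lower in JAG1 astrocytes at an adjusted p under 0.05. Over all tested genes, 55.1% passed this threshold, with 27.4% higher and 27.7% lower. At 2-fold or more, 1 member was lower (Fgf7) and 1 higher (Fgf10), beside 8.49% and 5.46% of all tested genes. For all 6 tested members the ranges of the groups did not overlap, which held for 62.0% of all tested genes. With so many genes changed, the number of members called is not a result about the family, and the sizes and directions of the single changes are described instead.

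The regions before the start sites of Fgf7 and Fgf10 are shown because these related ligand genes moved in opposite directions. Each is the sequence of 250 bases that ends at the base before the RefSeq start of the gene in GRCm38.p6, on the plus strand, at chr2:126034408-126034657 for Fgf7 and at chr13:118714449-118714698 for Fgf10. Capitals mark the core motif of RBPJ, the DNA-binding partner of the NOTCH intracellular domain (TGGGAA, or TTCCCA where it lies on the other strand).

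Fgf7: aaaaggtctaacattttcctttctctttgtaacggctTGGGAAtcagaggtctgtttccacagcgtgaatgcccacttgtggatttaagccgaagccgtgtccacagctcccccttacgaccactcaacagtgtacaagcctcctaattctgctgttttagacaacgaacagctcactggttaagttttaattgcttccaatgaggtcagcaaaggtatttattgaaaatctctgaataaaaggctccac

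Fgf10: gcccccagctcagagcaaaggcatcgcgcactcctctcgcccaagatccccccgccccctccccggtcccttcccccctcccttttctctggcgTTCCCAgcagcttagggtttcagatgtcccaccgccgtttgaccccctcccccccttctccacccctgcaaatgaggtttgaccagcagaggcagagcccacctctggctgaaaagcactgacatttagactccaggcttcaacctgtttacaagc

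The Fgf7 window held 1 match, beginning 213 bases before the start, and the Fgf10 window held 1 match, beginning 156 bases before it. Of 32851 RefSeq promoter windows of this length, 21.6% held the motif on either strand. The E-box CANNTG, to which TWIST1 and other basic helix-loop-helix factors bind, had 1 match in the Fgf7 window and 2 in the Fgf10 window, and was found in 66.2% of all windows. The SMAD palindrome GTCTAGAC, found in 0.167% of all windows, was in neither. The shorter SMAD3 element GTCTG, which the paper looked for in the TWIST1 promoter, is a different motif and was not counted. The matches of the 3 motifs did not overlap in these windows. Among the receptor genes, the windows of Fgfr2 and Fgfrl1 held 1 RBPJ match each and those of Fgfr3 held 0. The G and C content was 43.6% for Fgf7 and 61.2% for Fgf10. These matches describe the sequence and do not show binding.

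Fgf7, the keratinocyte growth factor, had 23.5, 26.0 and 28.0 CPM in the control libraries and 1.15, 0.963 and 0.790 CPM in the JAG1 libraries. In reads, these were 476, 484 and 535 against 23, 14 and 13. All JAG1 libraries lay far below all control libraries, yet above the limit of detection. The mean went from 25.8 ± 2.24 to 0.966 ± 0.178 CPM (SD, n = 3 each), which was 26.2-fold lower in the fit. The log2 change was −4.71 (SE 0.15, adjusted p = 9.56e-10 from edgeR), at the 1.08th percentile of the log2 changes of all tested genes. Its level went from the 53.7th percentile of the tested genes in control astrocytes to the 7.77th in JAG1 astrocytes.

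Fgf10, which is required for the budding of the lung and limb, had 2.72, 3.17 and 2.56 CPM in the control libraries and 5.48, 6.47 and 6.74 CPM in the JAG1 libraries. The reads behind these values were few, between 49 and 59 in control and between 94 and 111 in JAG1 libraries. The groups did not overlap, and the mean rose from 2.82 ± 0.314 to 6.23 ± 0.662 CPM (SD, n = 3 each). The log2 change was 1.14 (SE 0.16, adjusted p = 0.000111 from edgeR), or 2.20-fold with a 95% interval from 1.72 to 2.82.

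**Figure D1:**
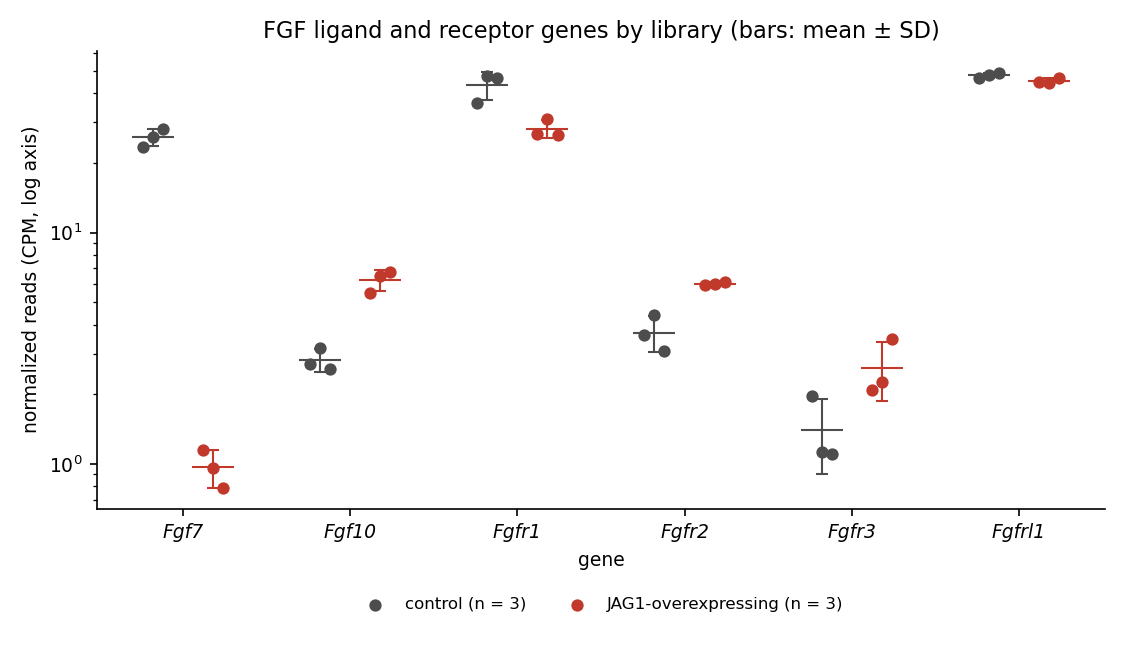
Normalized reads (CPM, log axis) of the 6 tested FGF ligand and receptor genes in each library, with control libraries in gray and JAG1 libraries in red; points are libraries and bars the mean ± SD (n = 3). Fgf7 lies at 23.5 to 28.0 CPM in control and at 0.790 to 1.15 CPM in JAG1 libraries, while Fgf10 lies at 2.56 to 3.17 and 5.48 to 6.74 CPM.

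The balance between both ligand genes was inverted. Fgf7 had 8.65, 8.20 and 10.9 times the reads of Fgf10 in the control libraries, and 0.209, 0.149 and 0.117 times in the JAG1 libraries. Of the reads on both genes, Fgf7 took 90.1 ± 1.31% (SD, n = 3) in control and 13.6 ± 3.45% (SD, n = 3) in JAG1 astrocytes, a difference of −76.5 percentage points. An exact permutation test over the libraries, two-sided, gave p = 0.1, the smallest that 3 against 3 libraries allow. It adds no support, because both genes were already fully apart in opposite directions, which fixed this outcome. The level of both genes added together was between 26.2 and 30.5 CPM in control and between 6.63 and 7.53 CPM in JAG1 libraries. The rise of Fgf10 was thus small in CPM beside the loss of Fgf7.

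The other ligand genes were at or near 0. Fgf5, an inhibitor of hair growth, and Fgf13 had 0 reads in every library. Fgf1 had 1 read in a control and 1 in a JAG1 library, and Fgf2, the basic FGF used to culture neural progenitors, had 1 read, in a control library. All 4 genes lay under the limit of detection in all 6 libraries, so that no change of theirs was detectable at this depth. Nudt6, which overlaps Fgf2 in the annotation, had 412 reads in control and 393 in JAG1 libraries. Whether this overlap affected the count of Fgf2 was not tested.

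No other FGF gene passed the filter on low counts. Of the 16 other ligand genes, 8 had no read in any library, and their levels added together stayed between 0.206 and 1.05 CPM. Fgf21, a metabolic hormone, is named after its values were seen: it had 8, 4 and 15 reads in the control and 0 in the JAG1 libraries. Fgf15, named for the same reason, had 0 reads in the control and 4, 0 and 5 in the JAG1 libraries. Fgfr4, the fourth receptor kinase of the family, had 0 reads in control and 2 in JAG1 libraries.

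Fgfr1, a receptor of mesenchymal and neural cells, had 36.4, 47.6 and 46.5 CPM in control and 26.8, 31.0 and 26.5 CPM in JAG1 libraries. Control replicate 1 lay closest to the JAG1 libraries, without overlap. The mean fell from 43.5 ± 6.16 to 28.1 ± 2.54 CPM (SD, n = 3 each), a log2 change of −0.63 (SE 0.11, adjusted p = 0.000483 from edgeR). In linear terms Fgfr1 was at 0.645 of its control level, with a 95% interval from 0.547 to 0.761.

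Fgfr2, which carries the splice form that binds FGF7 and FGF10, had 3.60, 4.40 and 3.09 CPM in control libraries and 5.93, 5.99 and 6.13 CPM in JAG1 libraries. The JAG1 libraries lay close together and above every control library. The mean rose from 3.70 ± 0.663 to 6.02 ± 0.105 CPM (SD, n = 3 each), with a log2 change of 0.70 (SE 0.16, adjusted p = 0.00301 from edgeR).

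Fgfr3, an astrocyte receptor in the brain, had 1.98, 1.13 and 1.10 CPM in control and 2.09, 2.27 and 3.46 CPM in JAG1 libraries. The highest control library, replicate 1 with 40 reads, came close to the lowest JAG1 library, which had 42 reads at a similar depth. The means were 1.40 ± 0.498 and 2.61 ± 0.744 CPM (SD, n = 3 each), with a log2 change of 0.88 (SE 0.30, adjusted p = 0.0271 from edgeR). This call was lost without control replicate 2 (adjusted p = 0.0930), without control replicate 3 (adjusted p = 0.0725) and without JAG1 replicate 3 (adjusted p = 0.130), each from edgeR, with the log2 change between 0.63 and 0.75 there and up to 1.22 without control replicate 1.

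Fgfrl1, the receptor without a kinase domain, had 46.7, 48.1 and 49.1 CPM in control and 44.6, 44.4 and 46.6 CPM in JAG1 libraries. The ranges came close without overlapping. The log2 change was −0.08 (SE 0.06, adjusted p = 0.271 from edgeR), and the 95% interval of the fold went from 0.857 to 1.04.

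**Figure D2:**
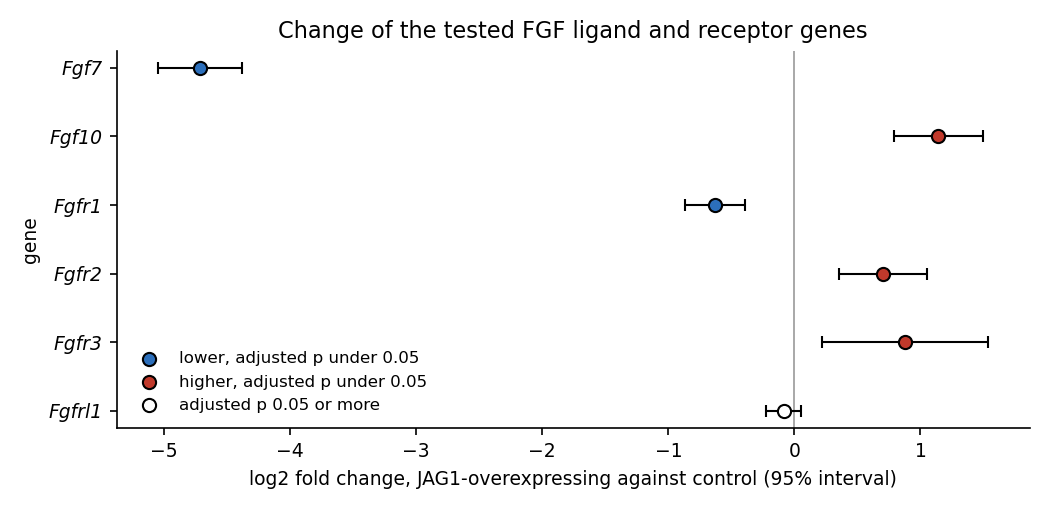
Log2 change of the 6 tested genes in JAG1 against control astrocytes, with 95% intervals from edgeR's quasi-likelihood fit (3 libraries per group); filled points have an adjusted p under 0.05. Fgf7 stands at −4.71 and Fgf10 at 1.14, the receptors lie between −0.63 and 0.88, and the interval of Fgfrl1 includes 0.

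In control astrocytes the levels ran in the order Fgfrl1, Fgfr1, Fgf7, Fgfr2, Fgf10 and Fgfr3. The ranges of Fgfrl1 and Fgfr1 overlapped, as did those of Fgfr2 and Fgf10. In JAG1 astrocytes the order was Fgfrl1, Fgfr1, Fgf10, Fgfr2, Fgfr3 and Fgf7, and only the ranges of Fgf10 and Fgfr2 overlapped among neighbors in it. Fgf7 thus moved from the third to the last place.

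The make-up of the receptor reads was compared within each library, which does not depend on normalization. Fgfr1 held 41.1%, 47.0% and 46.6% of the reads on the 4 receptor genes in the control libraries and 33.8%, 37.1% and 32.0% in the JAG1 libraries. The exact Clopper-Pearson 95% interval of the Fgfr1 share in control replicate 1, from 38.8% to 43.4%, shows the counting error behind such a share. Fgfr2 held 3.83 ± 0.657% in control and 7.34 ± 0.172% in JAG1 astrocytes, and Fgfr3 held 1.48 ± 0.646% and 3.18 ± 0.873% (SD, n = 3 each). Fgfrl1 held 49.8 ± 2.62% and 55.2 ± 1.84% (SD, n = 3 each). For each of the 4 genes the groups did not overlap, and the two-sided exact permutation test gave p = 0.1, the smallest possible here, for 4 related comparisons that share the same reads. Among the 3 receptors with a kinase domain alone, the share of Fgfr1 went from 89.4 ± 2.52% to 76.5 ± 2.83% and that of Fgfr2 from 7.65 ± 1.36% to 16.4 ± 1.03% (SD, n = 3 each). The 3 kinase receptors together had between 42.0 and 53.2 CPM in control and between 34.8 and 39.3 CPM in JAG1 libraries.

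**Figure D3:**
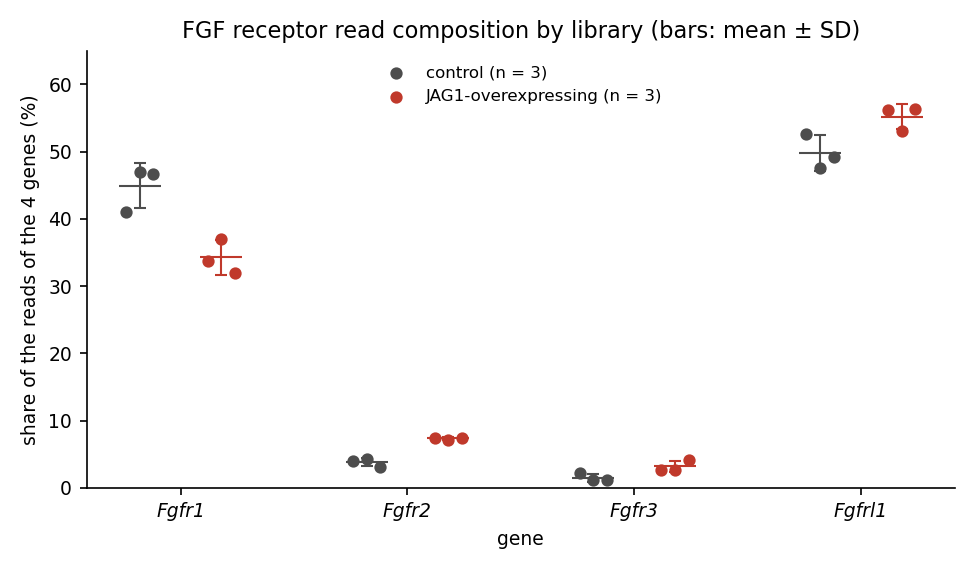
Share (%) of the reads on Fgfr1, Fgfr2, Fgfr3 and Fgfrl1 that each gene took in each library, with control in gray and JAG1 in red; points are libraries and bars the mean ± SD (n = 3). Fgfr1 took 41.1% to 47.0% in control and 32.0% to 37.1% in JAG1 libraries, and the other 3 genes took a larger share in the latter.

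FGF ligands reach their receptors through heparan sulfate proteoglycans and other surface proteins. Of 21 co-receptor and carrier genes, 14 were tested. Of these, 5 (35.7%) were higher and 3 (21.4%) lower, beside 27.4% and 27.7% of all tested genes. The median log2 change was 0.01 beside 0.00386 over all tested genes. Gpc4, a glypican, had 0, 3 and 0 reads in control and 347, 281 and 315 reads in JAG1 libraries (adjusted p = 4.59e-09 from edgeR). Flrt3, a membrane protein that binds FGFRs, had a log2 change of 3.32 (SE 0.37, adjusted p = 1.63e-05), and the syndecan Sdc3 had one of 2.42 (SE 0.10, adjusted p = 6.23e-09 from edgeR). Gpc4, Flrt3 and Sdc3 were higher, yet the levels of the 21 genes added together were lower. The sum was between 1101 and 1129 CPM in control and between 801 and 841 CPM in JAG1 libraries. The 3 lower genes were more abundant than these. The mean of the glypican Gpc1 went from 398 to 142 CPM, of Sdc2 from 116 to 48.1 and of Sdc1 from 125 to 84.1. Their log2 changes were −1.49, −1.27 and −0.57 (adjusted p = 1.86e-09, 7.94e-08 and 1.01e-05 from edgeR). Sdc2 lies on chromosome 15.

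Of 26 enzymes that make or trim heparan sulfate, 17 were tested, with a median log2 change of 0.03. Of these, 3 (17.6%) were higher and 5 (29.4%) lower, beside 27.4% and 27.7% of all tested genes. Sulf1, a sulfatase that removes the 6-O-sulfate which FGF receptors need, had 78, 67 and 64 reads in control and 1, 0 and 0 in JAG1 libraries (adjusted p = 3.35e-07 from edgeR). Hs6st1, which adds 6-O-sulfate, fell from 70.3 ± 2.72 to 19.3 ± 0.843 CPM (SD, n = 3 each), a log2 change of −1.87 (adjusted p = 3.24e-09 from edgeR). An enzyme that adds this mark and one that removes it were therefore both lower. B4galt7, which builds the linker to the core protein, had a log2 change of −1.47 (SE 0.28, adjusted p = 0.00104 from edgeR).

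Inside the cell, 35 of 38 relay genes between the receptor and ERK or AKT were tested, and the median log2 change was 0.12. Of these, 12 (34.3%) were higher and 8 (22.9%) lower, beside 27.4% and 27.7% of all tested genes. The largest called changes in this list were those of Rps6ka1, an ERK-activated kinase (log2 change −2.56, SE 0.12), Pik3r2, a regulatory subunit of PI3K (−1.58, SE 0.09), and the adaptor Gab1 (1.32, SE 0.25). Their adjusted p-values from edgeR were 1.81e-08, 1.06e-07 and 0.00110.

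FGF and ERK signaling induces its own inhibitors. Of the 13 tested feedback inhibitors, 7 (53.8%) were higher and 2 (15.4%) lower, beside 27.4% and 27.7% of all tested genes. Their median log2 change was 0.34. Spry2, a Sprouty inhibitor of receptor tyrosine kinase signaling, had 51.4, 52.0 and 58.4 CPM in control and 141, 106 and 142 CPM in JAG1 libraries (log2 change 1.27, SE 0.11, adjusted p = 1.92e-06 from edgeR). Dusp6, an ERK phosphatase, had 70.7, 65.8 and 68.5 CPM against 174, 139 and 164 CPM (log2 change 1.22, SE 0.08, adjusted p = 2.49e-07 from edgeR). Spry4 also rose, from few reads (log2 change 1.74, SE 0.46, adjusted p = 0.00783 from edgeR). Among the feedback genes that were lower, the phosphatase Dusp9 had a log2 change of −1.82 and Spry1 one of −1.66 (adjusted p = 1.97e-08 and 0.00145 from edgeR).

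Of the 16 tested target genes, 9 (56.2%) were higher and 4 (25%) lower, beside 27.4% and 27.7% of all tested genes. Their median log2 change was 0.54. Etv4 and Etv5 are ETS factors that FGF signaling induces in many tissues. Etv4 had 35.7, 37.5 and 30.5 CPM in control and 114, 112 and 109 CPM in JAG1 libraries (log2 change 1.69, SE 0.08, adjusted p = 1.43e-08 from edgeR). Etv5 had 14.0, 12.1 and 12.1 CPM against 34.5, 39.0 and 35.6 CPM (log2 change 1.51, SE 0.09, adjusted p = 1.18e-07 from edgeR). The immediate early genes Egr1 and Ier3 had log2 changes of 1.86 and 1.75 (adjusted p = 3.52e-08 and 1.27e-09 from edgeR). The groups did not overlap for these 4 genes. Other genes of the list went the other way. Egr3, Ets2, Junb and Ets1 were lower, with log2 changes of −1.33, −0.61, −0.57 and −0.55. Their adjusted p-values from edgeR were 0.00154, 7.81e-05, 0.00247 and 1.92e-05. Egr2, Ier2 and Myc were not called. Many other receptors signal through ERK, and which of them these genes follow was not tested.

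**Figure D4:**
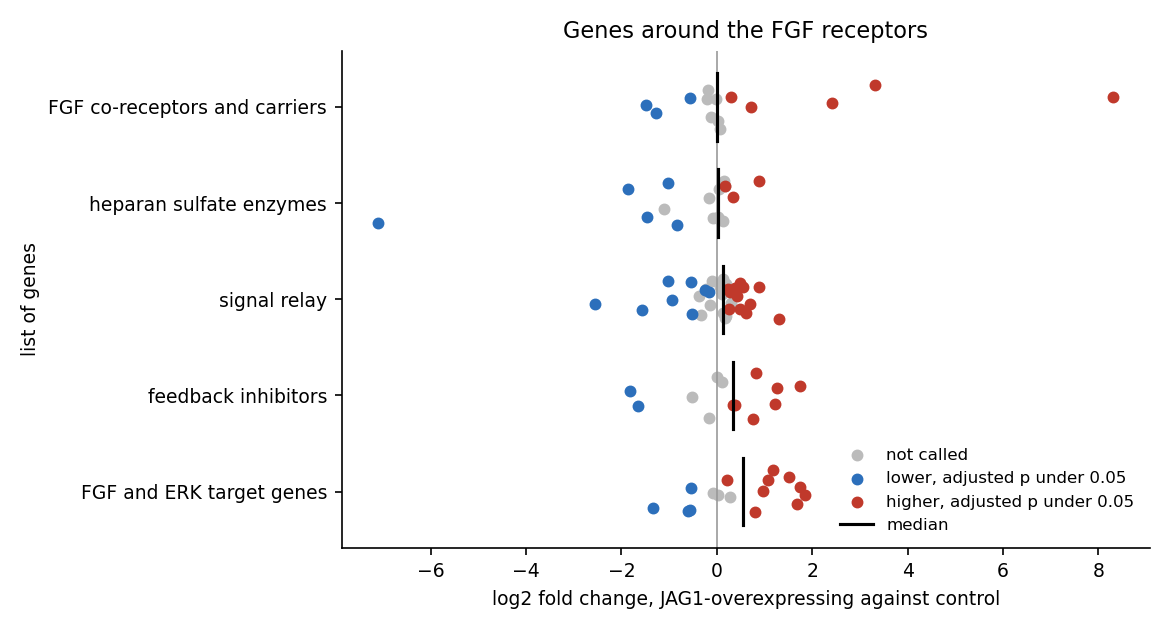
Log2 change in JAG1 against control astrocytes of the tested genes of 5 lists around the FGF receptors (1 point a gene, black bar the median of a list; colored points have an adjusted p under 0.05). The medians lie at 0.01 and 0.03 for the 2 lists of surface proteins and enzymes and at 0.34 and 0.54 for feedback inhibitors and target genes; the outermost points, Gpc4 and Sulf1, rest on at most 3 reads in 1 group, and their fitted size depends on the prior count.

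Over the 101 tested genes of all pathway lists, 38 were higher and 25 lower, or 37.6% and 24.8%, beside 27.4% and 27.7% of all tested genes. Smaller lists added to this count. Among the sodium channel genes and partners of FGF13, Scn2a fell from 1.24 ± 0.600 to 0.423 ± 0.179 CPM (SD, n = 3 each, adjusted p = 0.0134 from edgeR). Among genes tied to the unconventional export of FGF1 and FGF2, Tec was higher with a log2 change of 1.83 and Casp1 was lower with −0.32 (adjusted p = 0.000973 and 0.0216 from edgeR). FGF1, FGF2 and FGF13 themselves had at most 1 read in a library.

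By position, Fgf1 lies on chromosome 18, Fgf2 on 3, Fgf7 on 2, Fgf10 on 13, Fgf13 on X, Fgfr1 on 8 and Fgfr2 on 7, and Fgf5, Fgfr3 and Fgfrl1 share chromosome 5. The medians of these chromosomes lay between −0.12 and 0.05. Without the genes on chromosomes 15 and 19, 35 of 95 tested pathway genes were higher and 23 lower.

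The 10 tested genes nearest to Fgf7 (chr2:126034658-126091185 in GRCm38.p6) had a median log2 change of −0.03 and ranged from −0.83 to 0.63, far from the −4.71 of Fgf7. The lowest of them was Fam227b, whose gene spans the whole of Fgf7 in the annotation. It had 458 reads in control and 227 in JAG1 libraries. Whether the counting used strand is not given in the sources used here, so that reads of both genes may not be fully told apart. The neighbors of Fgf10 (chr13:118714699-118792573) had a median of −0.22, with 3 higher and 5 lower. Emb, 2 tested genes away, had −6.78. For the receptors, the medians of the 10 neighbors were −0.11 around Fgfr1, 0.07 around Fgfr2, 0.12 around Fgfr3 and 0.31 around Fgfrl1.

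**Figure D5:**
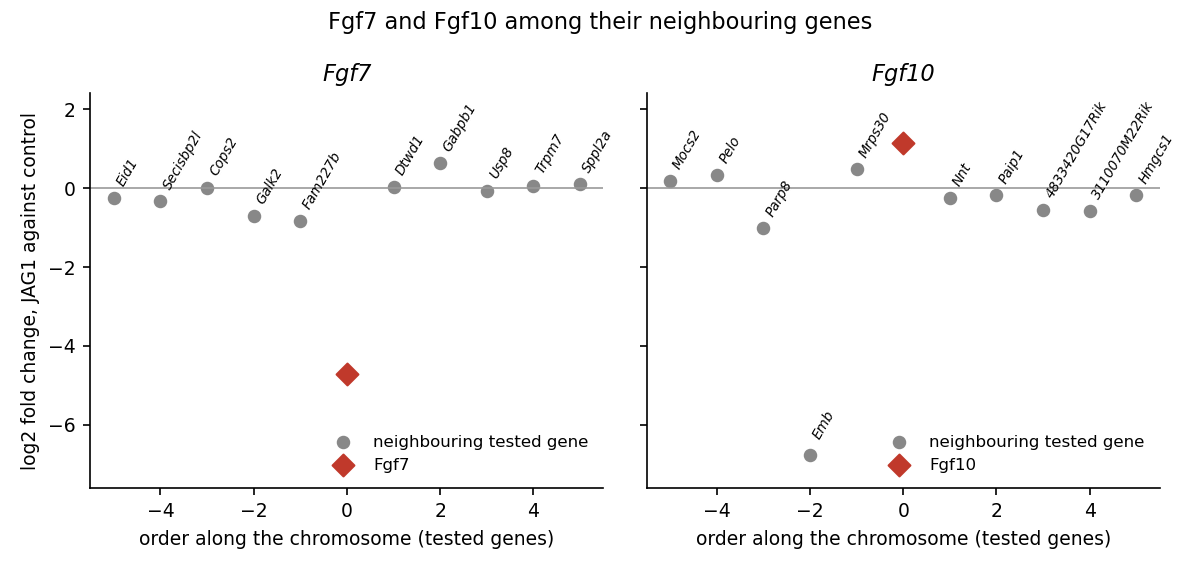
Log2 change (JAG1 against control) of Fgf7 and Fgf10, red diamonds at 0, and of the 5 tested genes on either side in their order along the chromosome, in gray. Fgf7 at −4.71 lies far below its neighbors, which range from −0.83 to 0.63, and Fgf10 at 1.14 lies above all of its own.

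Markers of several cell types moved with the groups. Of 11 astrocyte markers 7 were tested, with 6 lower in the JAG1 libraries and 0 higher, and Sox9 fell from 181 ± 4.64 to 18.0 ± 1.25 CPM (SD, n = 3 each, adjusted p = 5.31e-11 from edgeR). The summed level of this list, which Vim dominates, was between 3267 and 3751 CPM in control and between 3342 and 3408 CPM in JAG1 libraries. Of 7 mesenchymal markers 5 were tested, with 1 higher and 3 lower. Their summed level, which Col1a1 dominates, was between 326 and 328 CPM in control and between 218 and 261 CPM in JAG1 libraries, and Lum and Thy1 were at 0. Col1a2, the marker that was higher, went from 3.35 ± 0.528 to 50.7 ± 6.20 CPM (SD, n = 3 each, adjusted p = 1.42e-09 from edgeR). The 5 neuron markers summed to between 96.9 and 107 CPM in control and between 58.3 and 61.4 CPM in JAG1 libraries, with Tubb3 lower and Map2 higher, and Snap25 and Syt1 were at 0. The 6 microglia markers summed to between 3.24 and 3.97 CPM in control and between 1.55 and 2.34 CPM in JAG1 libraries, and of 2 tested, 1 was higher and 1 lower. Tmem119 was lower, with 48, 48 and 34 reads in control and 1, 2 and 2 in JAG1 libraries. Cx3cr1 was higher, with 10, 17 and 14 reads in control and 23, 19 and 22 in JAG1 libraries (log2 change 0.82, adjusted p = 0.0449 from edgeR). The 6 oligodendrocyte markers (0.243 to 1.19 CPM) and the 5 endothelial markers (0 to 0.322 CPM) were low in both groups, with Mog, Sox10, Mag and Tek at 0. The part of these markers in the changes of the FGF genes was not tested.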

How the data were processed

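RNA of 3 control and 3 JAG1-overexpressing libraries, grouped by their titles, was analysed. Per the file headers, the authors deposited for each gene symbol a raw read count and a normalized value on the log2 scale. The submitters' processing notes list Bowtie2, bedtools, edgeR and the build GRCm38 (mm10). The gene annotation, the strand setting and the normalization of the authors are not given in the sources used here. The counts were used, and the deposited log2 values entered only an alternative.

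Symbols were matched to RefSeq GRCm38.p6 (22059 of 23282 by symbol, 1071 by synonym), which also gave coordinates and promoter sequences. All 10 members matched, and 5 of the 6 tested members had a promoter entry. Where a symbol had more than 1 row (37 symbols), the row with most reads stood for it in the lists. Genes were filtered with filterByExpr at a minimum count of 10, scaled by TMM and tested with the quasi-likelihood test of edgeR 4.0.16 in R 4.3.3. Standard errors and 95% intervals came from the F statistic. The alternatives used limma 3.58.1 and DESeq2 1.42.0. On simulated data (11593 genes), 98 genes had a log2 change of 1 and 100 genes had one of 2. Of these, 89.8% and 100% were recovered, and 6.93% of the calls were false. In the libraries themselves 55.1% of the tested genes were called. Recovery and false calls with so many genes changed were not tested. The biological coefficient of variation was 0.0770.

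Named genes were all members, Jag1, up to 3 called genes with the largest change in each list, and Spry2, Spry4, Dusp6, Etv4 and Etv5. The lower genes of the co-receptor list, and the lower and uncalled genes of the target list, were named after their values were seen. The members and lists were chosen with earlier results of these data known, and the lists were written from general knowledge. Some genes of the lists are counted in the totals but not reported here.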

Additional observations from a re-analysis of the deposited data

How the results depend on the processing

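The calls of Fgf7, Fgf10, Fgfr1 and Fgfr2 kept their direction and threshold under DESeq2, limma-voom, library size alone, upper-quartile scaling, other filters, the authors' log2 values, TMM without chromosomes 15 and 19, and the omission of any single library. Over all alternatives the log2 fold change of Fgf7 stayed between −4.88 and −4.59, that of Fgf10 between 1.07 and 1.23, that of Fgfr1 between −0.75 and −0.56 and that of Fgfr2 between 0.58 and 0.84. Fgfr3 lost its call with 3 of the libraries left out, as given above, and Fgfrl1 was not called under any alternative. Fgfr1 (−0.63), Fgfr2 (0.70) and Fgfr3 (0.88) did not pass a limit of 2-fold. That limit left 1 member higher (Fgf10) and 1 lower (Fgf7), and 14 pathway genes higher and 14 lower; a limit of 1.5-fold left 23 pathway genes higher. Jag1, at 0.46, passed neither limit. With single libraries left out, between 2 and 3 members were higher and 2 lower, and between 34 and 41 pathway genes were higher and between 23 and 27 lower.

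The replicate numbers in the labels name no shared culture or day. Deviations of same-numbered libraries from their group means correlated by 0.148, 0.0614 and 0.119 across genes, so that the numbers were not taken as pairs, although all 6 libraries correlated best with their own number. With the replicate number as a block, 3 members were higher and 2 lower, Fgf7 had a log2 fold change of −4.71 and Jag1 of 0.46, and no member's call changed. Fgf1, Fgf2, Fgf5 and Fgf13 lay under the limit of detection at this depth, and what else may lower their counts was not tested.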
